A study of Mus musculus with 6 samples.

Results

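The members described here are 615 genomic regions of chromosomes 1 to 19 in which all 4 pulldowns made with probes against the RNA Tug1 had a peak. Peaks of the 4 deposited lists were merged wherever they overlapped by at least 1 bp, which gave 113114 regions, and 748 of these held a peak of every list. Of the 748, 85 lay on other sequences than chromosomes 1 to 19 and 48 fell in 6 stretches of piled-up peaks that the rule leaves out. The members were thus chosen by the presence of a peak in each list. The 615 made up 0.582% of the 105610 merged regions on chromosomes 1 to 19 outside those stretches, and that presence is a description, not a finding. The remaining 2080, 9054 and 93861 regions held peaks of 3, 2 and 1 libraries.

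The cells were cultured mouse podocytes, the epithelial cells that wrap the capillaries of the kidney glomerulus, of a line immortalised with a temperature-sensitive SV40 T antigen, at passages 10 to 12. They were grown at 33 degrees and shifted to 37 degrees for 10 days to differentiate. Nuclear chromatin fixed with glutaraldehyde was incubated with the even or the odd members of 48 biotinylated oligonucleotides along Tug1, with 2 pulldowns per probe set, and every group shares this untreated line. The 2 libraries of input DNA were used by the authors in peak calling and were not analysed here beyond that. The line is immortalised, the labels do not say whether the replicates came from separate cultures, and peaks of DNA cannot check the cell type against its marker genes.

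Tug1 is a long noncoding RNA that is transcribed in many tissues and has been studied for roles in chromatin regulation and, in podocytes, in mitochondrial gene control. In chromatin isolation by RNA purification (ChIRP), oligonucleotides complementary to an RNA recover that RNA together with the DNA crosslinked to it. Splitting the oligonucleotides into an even and an odd set is a specificity control, because a site bound through the RNA should be recovered by both sets, whereas DNA that one oligonucleotide binds directly would usually be recovered by one set. A place recovered by both sets may still be one that is pulled down with any probe, and a pulldown with unrelated probes was not analysed here.

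Sequence was at hand for the 300 bases around annotated gene starts (250 before the start and 50 from it on, RefSeq, GRCm38.p6, which is mm10) for 596 of the 615 regions. Of these, 10 overlapped such a window, 7 of them at protein-coding genes and 3 at lncRNA genes. At 4 of these 10, some bases of the window were covered by peaks of all 4 pulldowns. Those windows are shown because both probe sets recovered part of them in both replicates, which need not include the start itself. Bases covered by all 4 lists are in capitals, and each sequence runs 5′ to 3′ on the strand of the gene.
Rad9b, chr5:122354156-122354455, minus strand: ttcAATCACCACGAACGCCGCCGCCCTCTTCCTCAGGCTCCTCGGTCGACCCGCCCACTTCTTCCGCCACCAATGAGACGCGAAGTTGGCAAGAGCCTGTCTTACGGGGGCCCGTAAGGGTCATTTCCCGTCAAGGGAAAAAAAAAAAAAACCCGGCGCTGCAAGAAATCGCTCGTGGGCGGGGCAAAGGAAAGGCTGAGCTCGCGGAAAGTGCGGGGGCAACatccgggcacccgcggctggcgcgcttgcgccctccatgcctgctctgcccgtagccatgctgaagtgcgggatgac
Gm15564, chr16:35981798-35982097, minus strand: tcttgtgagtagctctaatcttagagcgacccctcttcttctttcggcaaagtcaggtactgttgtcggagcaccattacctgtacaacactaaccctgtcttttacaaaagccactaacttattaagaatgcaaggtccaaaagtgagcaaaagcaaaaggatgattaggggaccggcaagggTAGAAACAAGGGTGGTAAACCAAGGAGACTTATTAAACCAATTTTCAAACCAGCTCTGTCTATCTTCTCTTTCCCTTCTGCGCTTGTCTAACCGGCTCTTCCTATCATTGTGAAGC
Gm46178, chr1:191120652-191120951, plus strand: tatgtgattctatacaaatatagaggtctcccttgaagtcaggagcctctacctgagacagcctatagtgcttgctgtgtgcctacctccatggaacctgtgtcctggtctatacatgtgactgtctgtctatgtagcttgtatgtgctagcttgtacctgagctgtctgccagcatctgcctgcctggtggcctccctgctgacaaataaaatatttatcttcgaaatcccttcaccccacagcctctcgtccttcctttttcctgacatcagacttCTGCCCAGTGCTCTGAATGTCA
Gm40237, chr4:118547156-118547455, plus strand: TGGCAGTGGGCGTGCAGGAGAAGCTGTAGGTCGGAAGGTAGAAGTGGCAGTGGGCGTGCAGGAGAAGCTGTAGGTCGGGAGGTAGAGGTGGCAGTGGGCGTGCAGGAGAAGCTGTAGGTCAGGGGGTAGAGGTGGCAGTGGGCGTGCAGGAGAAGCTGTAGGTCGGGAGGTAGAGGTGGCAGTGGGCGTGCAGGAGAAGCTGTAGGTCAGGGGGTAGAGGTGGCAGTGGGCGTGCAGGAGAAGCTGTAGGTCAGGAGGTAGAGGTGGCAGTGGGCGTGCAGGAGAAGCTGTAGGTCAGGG

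The first window is the shared start of Rad9b, which codes for a paralogue of a DNA damage checkpoint clamp subunit, and of Vps29 on the opposite strand, which codes for a subunit of the retromer that recycles membrane proteins. All 4 lists covered 220 bases there, at positions -247 to -28 relative to the start of Rad9b, and 145 of them lay in the window of Vps29. The scores were 3100 and 196 with even probes and 3100 and 501 with odd probes (replicates 1 and 2). The score is the authors' peak caller's value and is compared only within a list. Its percentile, the percent of a list's peaks that score no higher, was 26.0 in even replicate 2 and 91.8 in odd replicate 2. In the replicate 1 lists both values were 3100, where most scores of those lists are tied, so the contrast is between 2 single libraries. Scores given below for even and odd probes are those of the replicate 2 lists unless another list is named, 1 library per probe set.

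Peaks at the lncRNA genes Gm15564 and Gm46178 are next. At Gm15564 the even peaks began at -77 and -66 relative to the start and ended at 283 and 294. The odd peaks began at -76 in both replicates and ended at 285 and 287. The common stretch was 350 bp, or 94.1% of the merged region, and the replicate 2 scores were 1260 (even) and 611 (odd), at the percentiles 99.5 and 95.4. At Gm46178 the common stretch was 207 bp and the replicate 2 scores were 410 (even) and 213 (odd).

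The window of Gm40237 is a tandem repeat. A run of 33 bases, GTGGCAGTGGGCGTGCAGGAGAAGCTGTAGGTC, occurs 6 times in it, and 97.6% of its bases equal the base 88 positions on, the highest value for any period of 10 to 100 bases in all 32851 windows, of which 0.0548% reached 80%. The merged region there was 1886 bp wide, with scores of 3100 and 977 in even replicates 1 and 2 and 3100 in both odd replicates. The first window of Gm40237 reached 42.7%, and the other windows that the regions overlapped ranged from 31.9% to 39.3%, against a median of 33.8% over all windows. The name non-repeat therefore rests on the 6 stretches that were left out. Repeats elsewhere among the 615 regions were not annotated here, and how reads that align to several places were treated is not given in the sources used here.

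At the other protein-coding genes the common stretch lay outside the window itself. It lay inside the transcribed part, from 172 to 357 bases after the start of H2bc6 (a histone H2B gene), from 56 to 311 after that of Il1b (the cytokine interleukin-1 beta), and from 113 to 337 after that of Tbx6 (a T-box transcription factor of the early mesoderm). In Trex1, which codes for an exonuclease that degrades cytosolic DNA, it lay from 110 to 428 and in Tuba1c, an alpha-tubulin gene, from 127 to 361 bases after the start. At Pou6f1, a gene of a POU-domain transcription factor, it lay at -824 to -558. Trex1 and Tuba1c were high in both replicate 2 lists, with scores of 1688 and 947 (even) and 685 and 663 (odd), at percentiles from 96.4 to 99.8. H2bc6, Il1b and Pou6f1 scored 404, 627 and 446 with even probes and 349, 264 and 220 with odd probes, and Tbx6 scored 152 (even) and 641 (odd). All of these had 3100 in both replicate 1 lists. Tuba1c and H2bc6 belong to families with near-identical copies, so the assignment of reads to them is uncertain.

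**Figure D1:**
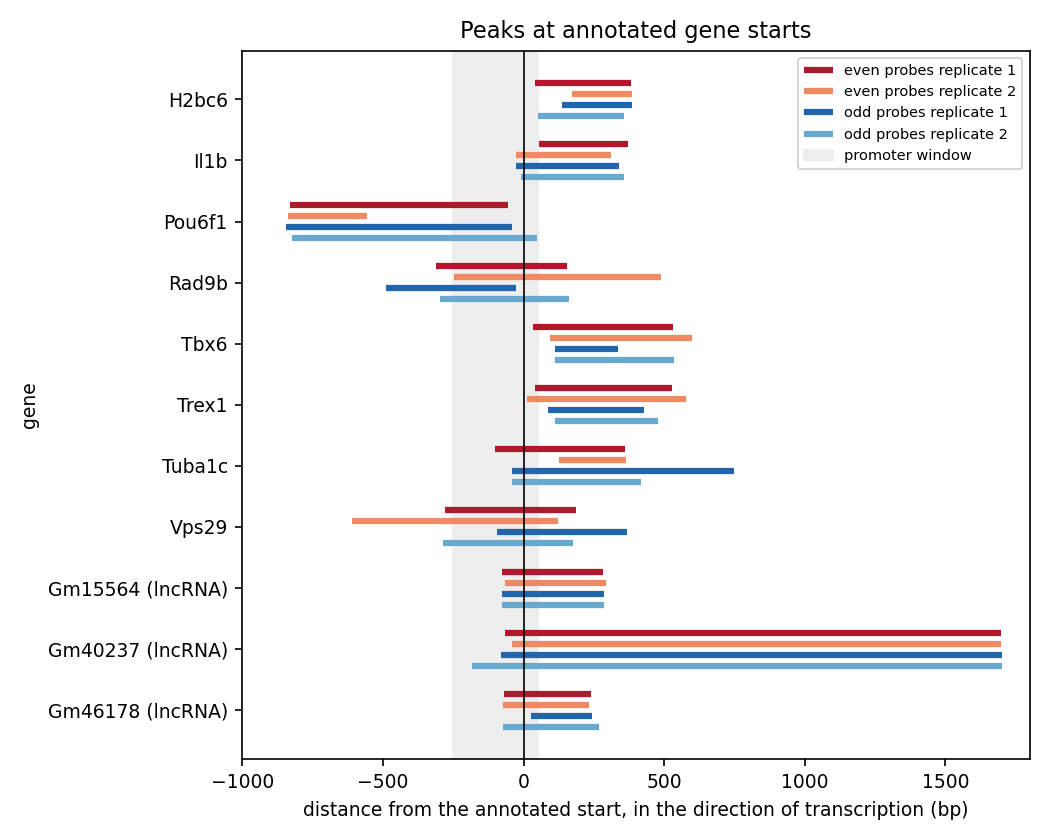
Peaks of the 4 pulldowns at the 11 genes whose start window a region overlaps, plotted by distance from the annotated start in the direction of transcription (bp). Each bar is 1 library's peak cover and the grey band is the window of 300 bases; cover by all 4 libraries reaches the band at Rad9b, Vps29 and the 3 lncRNA genes, while at H2bc6, Tbx6 and Trex1 it starts at 172, 113 and 110 bases after the start.

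Few of the listed starts of protein-coding genes were reached, and starts of genes that are not listed could not be counted. Regions of all 4 libraries overlapped 8 of 20085 autosomal protein-coding windows (0.0398%). By region the share was 1.17% (7 of 596), against 1.97% of regions of 3 libraries, 1.22% of 2 and 0.804% of 1. It was 0.864% of all regions that were not members. The 95% interval of the 1.17%, for counting error only, was 0.473% to 2.40% and holds all these shares. By region, starts were thus not reached more rarely than by regions that were not members. The 8 windows covered a wide range of composition, with a GC content of 38.0% at H2bc6, 45.7% at Il1b, 62.3% at Rad9b and 70.3% at Pou6f1, against a median of 56.3% (quartiles 48.3% and 64.7%) over 21263 protein-coding windows. Searched on both strands, TATAAA was found in those of Il1b and Tbx6 (12.6% of all windows hold it). CCAAT stood in those of H2bc6, Rad9b and Tuba1c (38.2% of all), and GGGCGG in those of H2bc6, Pou6f1, Rad9b, Trex1 and Vps29 (46.2% of all). GAGAGAGA and CACACACA, held by 3.37% and 3.56% of all windows, were in none of the 8. The windows of Rad9b and Vps29 overlap each other, no motif searched contains another, and a match is a description of letters only.

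The regions were compact. Merged widths ranged from 221 to 3347 bp with a median of 520 bp, and 602 of the 615 consisted of exactly 4 peaks, 1 from each list. A stretch covered by all 4 lists existed in 599 of them, with a median over all 615 of 305 bp (quartiles 234 and 350 bp), or 60.8% of the merged region. In the other 16, peaks were chained, so that each overlapped a neighbour but no base was common to all. These chained regions had a median width of 1150 bp, against 512 bp for regions with a common stretch. Another of the 615 regions lay within 50 kb of 8 of the 16, against 46 of all 615. The chained regions include that in Col4a3, which codes for a type IV collagen chain, both in Eppk1, 1 of the 2 in Sp110 and that in Psmd12.

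**Figure D2:**
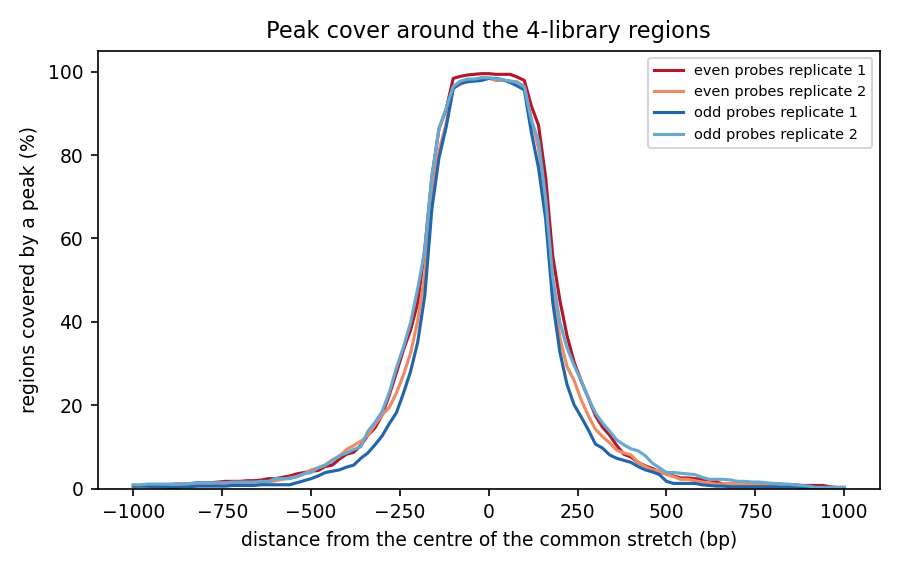
Percent of the 615 regions covered by a peak of each library, by distance from the centre of their common stretch (bp; the region's centre where there is none). Alignment on the common stretch puts every curve near 100% at the centre; at -200 bp, cover is 44.6% and 40.3% in the even replicates and 35.1% and 48.0% in the odd replicates (1, then 2).

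Distances between peak centres inside the regions were short in every pair of lists. The median distance between peak centres was 28 bp between the even libraries and 32 bp between the odd libraries. Across the sets it was 28 bp (even 1, odd 1), 30.5 bp (even 1, odd 2), 27.5 bp (even 2, odd 1) and 39 bp (even 2, odd 2). The mean over pairs within a probe set was 30 bp, against 31.25 bp between sets, a difference of -1.25 bp, which was 2.75 bp without even replicate 2 and 0.25 bp without odd replicate 2. In each pair between 77.1% and 84.1% of the regions had centres within 100 bp of each other. The rule used overlap of these peaks, which limits how far apart their centres can be, so the distances are a description with no test.

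Widths of the peaks inside the regions had medians between 354 and 411 bp. The median width was 411 and 380 bp with even probes (replicates 1 and 2, mean 395.5 ± 21.9, SD, n = 2) and 354 and 398.5 bp with odd probes (376 ± 31.5, SD, n = 2). The even minus odd difference of 19.25 bp was smaller than either SD between replicates, and without odd replicate 1 it was -3 bp. All other autosomal peaks had medians of 398 and 402 bp with even probes, and 246 and 404.5 bp with odd probes. Odd replicate 1 stood apart, since its peaks in the regions were wider than its other peaks by more than 100 bp, while in the other 3 lists the medians differed by at most 22 bp. A wider peak overlaps others more readily, so width bears on the choice of the regions and is given without a test.

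Scores varied most in the replicate 2 lists, although those of even replicate 1 in the regions ranged from 266 to 3233. In the replicate 1 lists, 94.3% (even) and 99.8% (odd) of the peaks in the regions had the value 3100, at which scores pile up, against 78.6% and 99.9% of all peaks of those lists. In even replicate 2 the median score was 451 in the regions (range 56.7 to 3152) and 264 in all other autosomal peaks. In odd replicate 2 it was 461 (range 52.7 to 3134) in the regions and 220 elsewhere. Peaks of regions with 3 libraries lay between, at 337 and 324. The scores belong to the peaks that chose the regions, so these differences are a description and were not tested. The median percentile over the 4 lists was 98.1 and 83.3 with even probes and 100 and 89.5 with odd probes. The replicate 1 medians, 98.1 and 100, are those of the tied value and equal the medians of all other peaks of these lists, so these medians carry no contrast.

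Most regions were above the middle of both replicate 2 lists, but not all. At or above the median of both lists were 424 regions, 50 were so in even replicate 2 only, 103 in odd replicate 2 only, and 38 were below it in both. Across the 615 regions, scores in even and odd replicate 2 had a Spearman rho of 0.469. This describes regions that share the genome, the input library and the replicate number, and the 5 other pairs, with a replicate 1 list in each, ranged from 0.0341 to 0.173 with nearly all scores tied. The percentile was higher in even replicate 2 at 290 regions and higher in odd replicate 2 at 325.

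**Figure D3:**
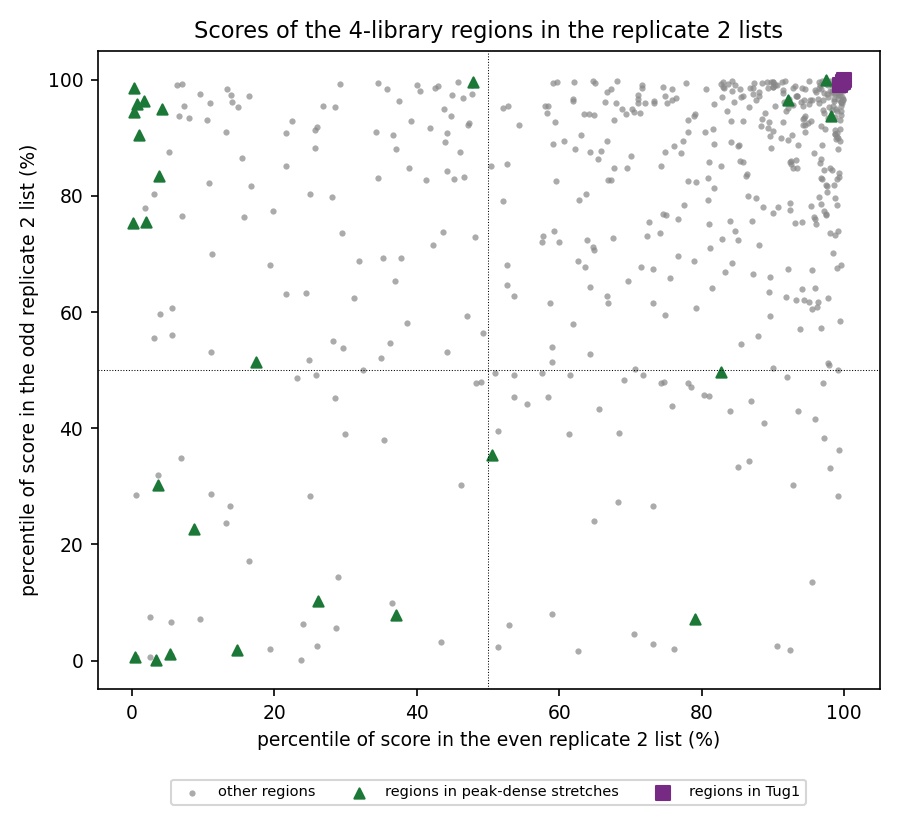
Percentile of each of the 615 regions in the even replicate 2 list (horizontal, %) and in the odd replicate 2 list (vertical, %), with the list medians dotted. The 3 regions in Tug1 sit above the percentile 99 in both; the 26 regions in peak-dense stretches have a median of 7.03 in even replicate 2 and 75.4 in odd replicate 2.

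The strongest regions, by the lower of the 2 percentiles in the replicate 2 lists, were mixed in kind. Of the 58 regions at or above the percentile 99 in both, 18 (31.0%) had their centre in a protein-coding gene, 13 (22.4%) in a lncRNA gene, 1 in a pseudogene and 26 (44.8%) outside genes. Of the other 557, 42.4% lay in protein-coding genes, 9.34% in lncRNA genes and 45.2% outside genes. The difference between these groups was not tested, and 3 of the 13 regions in lncRNA genes are those of Tug1 itself, which the probes can bind directly as DNA. In those 3, all 4 lists covered 1938, 821 and 485 bp, and the 1938 bp were split over more than 1 stretch.

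A score of at least 3100 in all 4 lists was reached by 12 regions. Protein-coding hosts among them were Faxc, a homologue of a fly gene of axon development, Rasgrf2, an exchange factor that activates Ras, and Ano2, a calcium-activated chloride channel. Dpp9, a cytosolic dipeptidyl peptidase, Qpct, glutaminyl cyclase, and the predicted gene Gm40862 were the others. Their common stretches were 683 bp in Faxc (chromosome 4, 21947977 to 21948771), 355 bp in Rasgrf2 (chromosome 13, 92043813 to 92044273) and 533 bp in Ano2 (chromosome 6, 125876656 to 125877527). That in Qpct (chromosome 17, 79087189 to 79088928) was 1644 bp, and that in Dpp9 was 359 bp, only 36.0% of the merged region.

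Next in rank came regions with high scores that stayed below 3100 in at least 1 replicate 2 list. In Gnb1l, which codes for a WD40-repeat protein, the replicate 2 scores were 2410 (even) and 2555 (odd), at chromosome 16, 18533076 to 18533463. In Chl1, a cell adhesion molecule of the L1 family and below the first 20 in rank, they were 2286 and 1650, at chromosome 6, 103648951 to 103649412. All these peaks had a score of 3100 in both replicate 1 lists. A region on chromosome 3, 4338510 to 4339242, scored 2709 and 2811, and it overlaps the annotated 5S ribosomal RNA gene n-R5s194. Of the first 20 regions in rank, 8 lay in protein-coding genes, 7 in lncRNA genes and 5 outside genes.

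Small RNA genes, with miscellaneous RNA genes counted in, were overlapped by 16 of the 615 regions (2.602%), against 257 of 104995 other regions (0.245%). The share was 0.673% of regions of 3 libraries, 0.353% of 2 and 0.225% of 1. Miscellaneous RNA genes alone were overlapped by 1 of the 615 regions (0.163%), that at Gm46773. Their share was 0.144%, 0.0994% and 0.0991% of regions of 3, 2 and 1 libraries. The 16 were 6 at tRNA genes, 4 at snRNA genes, 2 at the 7SL RNA genes Rn7s1 and Rn7s2, 2 at 5S rRNA genes, and 1 each at Mir6236 and the RNA gene Gm46773, which spans far more than the region; none was at a snoRNA gene. Transfer RNAs read the codons of mRNAs in translation, snRNAs act in splicing and 7SL RNA is the core of the signal recognition particle.

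The tRNA region with the highest scores held n-TMcat5, on chromosome 13, 23499671 to 23500292, with 1978 (even) and 837 (odd) in the replicate 2 lists. The region at n-TSgct2 scored 483 and 392, and the region that holds both n-TLcag4 and n-TLcag5 scored 277 and 103. Among snRNA genes, Gm23472 and Gm24497 lay close together on chromosome 1 and scored 1163 and 1101 (even) and 918 and 998 (odd). Rn7s1 and Rn7s2, both on chromosome 12, scored 301 and 344 (even) and 235 and 643 (odd). These genes have many near-identical copies in the genome, and the assignment of reads among copies is uncertain. The difference from other regions was not tested.

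Most regions lay far from the listed gene starts. The median distance to the nearest listed protein-coding start was 63613.5 bp over the 596 regions off chromosome 18 (on which 19 regions lay), against 51041.8 bp for regions of 3 libraries, 54876.5 bp for 2 and 63903 bp for 1. Within 1 kb of such a start were 12 regions (2.01%), against 4.15%, 2.94% and 2.17% in regions of 3, 2 and 1 libraries. The nearest listed start lay downstream, so that the region was upstream of it, in 48.0% of the 596 regions, against 45.8%, 43.7% and 44.2%. Some genes off chromosome 18 also lacked a listed start. A region inside Eppk1, a gene of 18708 bp, had its nearest listed start at Ly6f, 836520 bp away. Distances can thus be too long and counts near starts too low, in regions of any number of libraries.

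Inside protein-coding genes were 254 region centres (41.3%), against 45.2% of all regions that were not members. In lncRNA genes were 65 (10.6%), against 7.42%, and outside all genes 278 (45.2%), against 45.9%. Counted by distance, 46 (7.48%) lay 2 kb or less from where a protein-coding gene begins or ends, against 7.69%, whereas among regions of 3 libraries the share was 11.3%. None of these shares was tested, since regions are not replicates. In all 4 lists the peaks in the regions lay in lncRNA genes more often than the list's other peaks, at 10.8% and 11.0% against 7.55% and 7.53% with even probes and at 10.8% and 10.6% against 7.43% and 7.36% with odd probes. The regions are the same places in each list, so these are not separate observations.

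Within their protein-coding hosts the regions were spread along the gene. Of 201 regions in hosts of known strand, 76 (37.8%) lay in the part nearest the 5′ end when the gene is cut into 3 equal parts, 66 (32.8%) in the middle part and 59 (29.4%) in the part nearest the 3′ end. In the same order the shares were 35.0%, 28.6% and 36.4% for regions of 3 libraries. They were 32.9%, 32.9% and 34.1% for 2 libraries, and 33.8%, 33.0% and 33.2% for 1. The differences were not tested. Host genes of the regions of all 4 libraries had a median length of 116091 bp. It was 103337, 103210 and 112898 bp for the hosts of regions of 3, 2 and 1 libraries.

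**Figure D4:**
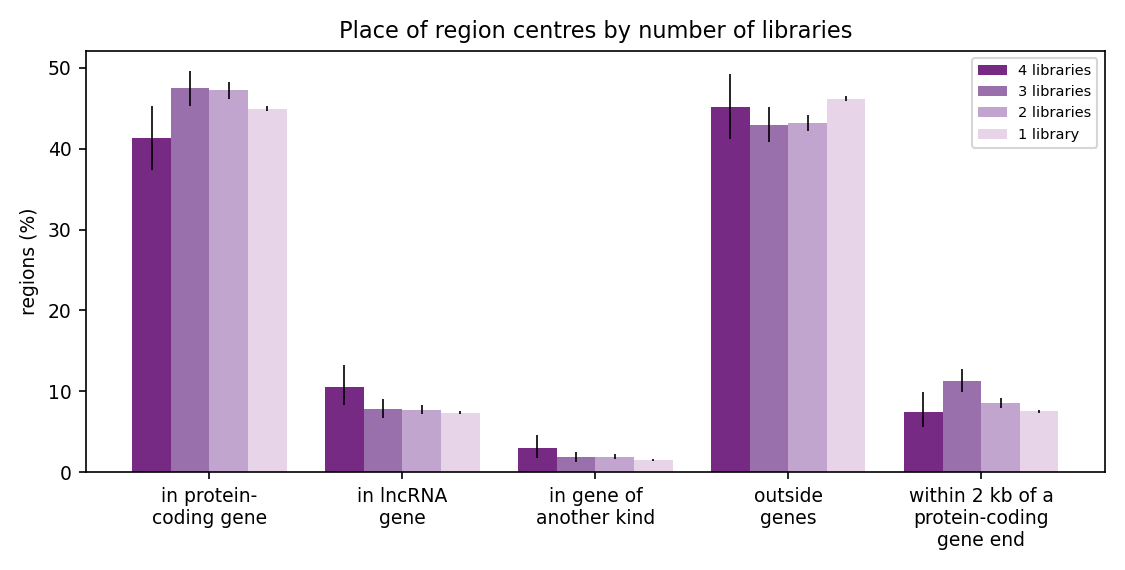
Percent of region centres by place, for the 615 regions of 4 libraries and for regions of 3, 2 and 1 libraries on chromosomes 1 to 19 (bars; lines are exact Clopper-Pearson 95% intervals, which cover counting error only). In lncRNA genes the share is 10.6% with 4 libraries and 7.79%, 7.74% and 7.38% with 3, 2 and 1; within 2 kb of a protein-coding gene end it is 7.48%, 11.3%, 8.56% and 7.52%.

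Genes with several regions were few. Tug1 and Ulk4, the gene of a pseudokinase, each held 3, and Ano2, Sos2, Cfap20dc, Csgalnact1, Eppk1, Limch1, Phactr2 and Sp110 held 2 each. In Ano2 the second region, at chromosome 6, 125816536 to 125816858, scored 577 (even) and 352 (odd) in replicate 2, and its common stretch of 307 bp filled 95.05% of it. In Sos2, a Ras exchange factor, the 2 regions scored 741 and 276 with even probes and 447 and 291 with odd probes. The 3 regions of Ulk4 scored 170, 196 and 142 with even probes and 226, 121 and 153 with odd probes in replicate 2, where only the 226 exceeded the median of its list, and 3100 in both replicate 1 lists. The pair in Eppk1 scored 121 and 96.7 with even and 68.7 and 59.1 with odd probes in replicate 2, all below the list medians, against 2560 and 3100 in even replicate 1 and 3100 in odd replicate 1.

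Some of these hosts lie in stretches crowded with peaks. With 15 or more other merged regions within 50 kb there were 26 of the 615 regions (4.23%), against 1.39% of other regions. They include the regions in Sp110 and near it on chromosome 1, a group of 8 on chromosome 5 from 14943923 to 15663802, 2 on chromosome 8 from 55346354 to 55374522, and those of Ulk4. Their median score was 131 in even replicate 2 and 331 in odd replicate 2, against 464 and 470 for the other 589 regions. They were also wider, with a median of 963 bp against 512 bp, and a median of 23.7% of their width was common to all lists, against 61.9%. Without them 41.8% of the regions lay in protein-coding genes, 10.7% in lncRNA genes and 44.7% outside genes, close to the values for all 615. Copy number and repeat content of these stretches were not examined.

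Gene lists were read against all protein-coding genes of the autosomes, of which 310 of 20665 (1.5%) had a region in them or no more than 5 kb away, and 1.22% were overlapped by one. For genes of 200 kb or longer the share was 89 of 945 (9.42%), so gene length has to be kept beside any count. Per Mb of gene with its flanks, all protein-coding genes held 0.242 regions and those of 200 kb or longer 0.230.

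Genes of axon guidance and cell adhesion, which steer growing processes and join cells, held regions in 8 of 63, namely Robo1, Sema6d, Ephb1, Chl1, Cntn3, Lrrc4c, Dscam and Tenm3. Their median length is 432566 bp. Among the 49 of the list that are 200 kb or longer the share was 16.3%, and per Mb the list held 0.202 regions, below the value for all genes. In Robo1, a receptor for Slit ligands, the replicate 2 scores were 785 (even) and 496 (odd). In Ephb1, an ephrin receptor, they were 492 and 768, and in Tenm3, a teneurin of synaptic adhesion, 957 and 685. The regions in Sema6d, Cntn3, Lrrc4c and Dscam scored between 432 and 720 with even and between 222 and 359 with odd probes.

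Other lists held 0 to 2 genes each. Among Ras and Rap exchange factors these were Sos2 and Rasgrf2 of 19, among calcium and chloride channels Ano2 and the ryanodine receptor gene Ryr3 of 30, and among Polycomb and DNA methylation genes Jarid2 and Dnmt3a of 25. Of 30 foot process and slit diaphragm genes, Anln, an actin-binding protein, held a region, at chromosome 9, 22357971 to 22358453, with 565 (even) and 266 (odd) in the replicate 2 lists. Of 12 podocyte transcription factor genes Lmx1b held one (192 and 269), of 10 basement membrane genes Col4a3 (246 and 549), and of 20 marker genes of tubule, mesangial and endothelial cells Hnf4a (324 and 563) and Flt1 (528 and 444). Of 30 genes of PGC-1 coactivators and their partners, which drive mitochondrial biogenesis, none held a region. That list spans 3.83 Mb with its flanks, and all protein-coding genes held 0.242 regions per Mb, so the lack of a region there is not read as a result. Per Mb with flanks, Ras and Rap exchange factors held 1.27 regions, channels 0.329, Polycomb and DNA methylation genes 1.44 and foot process genes 0.196. Podocyte transcription factor genes held 1.42, basement membrane genes 0.992 and the marker genes 1.30. Each of these values rests on 1 to 3 regions. Lists of this size with 0 to 2 genes carry no comparison, and none was tested.

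By position in the gene, the regions given here were internal. Those in Col4a3 and Ryr3 had no listed strand, so their place from the 5′ end was not computed. The region in Lmx1b lay 65.9% of the way from the 5′ end, that in Jarid2 72.8%, in Dnmt3a 40.5%, in Flt1 69.8% and in Anln 53.5%. The region in Hnf4a, which codes for a nuclear receptor of the proximal tubule and liver, lay 14.0% along the gene. In Jarid2 the common stretch was 579 bp, although the scores of 110 (even) and 175 (odd) were low in both replicate 2 lists.

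By chromosome the regions were spread over all 19 autosomes, from 19 on chromosome 18 to 49 on chromosome 1. Relative to the median autosome their density per Mb was highest on chromosomes 19 (1.48), 13 (1.37), 15 (1.36), 8 (1.27) and 9 (1.26) and lowest on chromosome 4 (0.664). The merged regions as a whole were densest on chromosomes 19 (1.63), 8 (1.56) and 15 (1.54). As a share of the merged regions of the chromosome, the regions of 4 libraries made up 0.847% on chromosome 13 and 0.771% on chromosome 9, against 0.560%, 0.502% and 0.543% on chromosomes 19, 8 and 15. Counts were small, 22 to 41 regions on each of chromosomes 8, 9, 13, 15 and 19, and chromosomes were not compared by a test, since neighbouring regions are not independent.

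**Figure D5:**
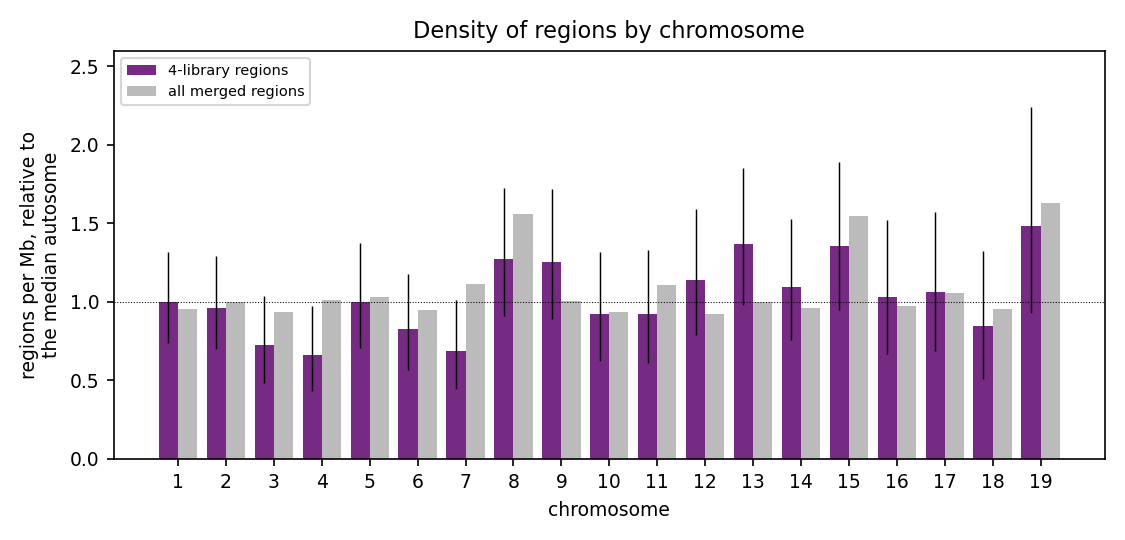
Regions per Mb on each autosome relative to the median autosome, for the 615 regions of 4 libraries (purple, with exact Poisson 95% intervals for counting error) and for all merged regions (grey). Grey bars stand at 1.56, 1.54 and 1.63 on chromosomes 8, 15 and 19, where the purple bars reach 1.27, 1.36 and 1.48.

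Regions just outside the rule had 3 of the 4 libraries. Of these 2080, 1082 (52.0%) lacked even replicate 2, 480 lacked odd replicate 2, 395 odd replicate 1 and 5.91% even replicate 1. The nearest peak of the lacking list was a median of 29189, 24796, 32291 and 15306 bp away in that order, and within 1 kb in 38, 16, 14 and 9 regions. Few thus missed the rule by a short gap. The highest-ranked regions that lacked 1 list were in Tfap2d (even replicate 2 lacking, odd replicate 2 score 986), in Cacna1a (odd replicate 1 lacking, replicate 2 scores 1102 with even and 3176 with odd probes), near Efcab10 (odd replicate 2 lacking, 3100 in the others) and near Gm33515 (even replicate 1 lacking, 731 and 694). Just inside the rule were the chained regions without a common base, such as that in Psmd12, which codes for a proteasome subunit, with 772 (even) and 343 (odd).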

How the data were processed

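The submitters' processing notes name the aligner Bowtie2 (2.1.0) and the build mm10. Each deposited list holds the peaks of 1 pulldown, called without pooling against the input library of the same number, as the files are named. Peak names start with MACS, whose version and threshold no source used here gives. The deposited score of a peak is the authors' and its scale is not stated, so it was compared within a list, as a value or a percentile. Read depth is unknown because the lists carry peaks only. Intervals cover counting error of regions only. A list of the whole series, the 4 lists joined, was not used.

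Merging ran in chains of peaks that shared 1 bp or more. Coordinates are 1-based. Genes and gene starts came from RefSeq tables of GRCm38.p6 (no exons were used). The members, the gene lists and the rule for naming regions were chosen with earlier results of these data known. The rule names regions in Tug1, hosts with 2 or more, the first 20 by the lower replicate 2 percentile, those at protein-coding start windows, list genes, extremes of common share and width, and the best region lacking each list. A region that this rule names is not reported here. Gene starts of lncRNAs, small RNA genes, hosts of other kinds, the tandem repeat and dense stretches were chosen after their values were seen. The planned exact permutations of 4 libraries are not read as tests, since the rule used the peaks' positions, most replicate 1 scores are tied and p cannot be below 0.333. Alternatives were other overlap, score, distance and cluster settings and each library left out. On simulated lists 500 of 500 regions planted to overlap in all 4 lists were found, which checks the merging code only and not recovery in real lists. The software was matplotlib 3.10.9, scipy 1.17.1, pandas 2.3.3, numpy 2.4.6 and Python 3.11.15.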

Additional observations from a re-analysis of the deposited data

How the results depend on the processing

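The number of regions was 615, and 414 to 663 in the settings that kept all 4 libraries; asking for 3 libraries only gave 734 to 1696, namely 734 and 1696 when even replicate 1 or 2 was left out, and 1008 and 1092 when odd replicate 1 or 2 was. With a library left out, the share in protein-coding genes was 40.5% to 46.9%, in lncRNA genes 8.97% to 10.4%, outside genes 42.0% to 46.6% and within 2 kb of a protein-coding gene end 7.77% to 9.82%; the last was 4.07% with 1 kb and 15.3% with 5 kb. The even minus odd width difference ranged from -3 to 41.5 bp, the percentile difference from -11.4 to 3.31, and the within minus between distance from -6.75 to 2.75 bp, so each turned direction when 1 library was left out: width without odd replicate 1 (-3), percentile without even replicate 2 (3.31) or odd replicate 1 (1.17), and distance without even replicate 2 (2.75) or odd replicate 2 (0.25). The cause was not tested. Against peaks of regions with 3 libraries, the median score in the regions was higher by 114 (even) and 137 (odd) in the replicate 2 lists, in place of 187 and 242. Leaving out the 26 regions of dense stretches, chosen after seeing the data, left 589, of which 7.47% lay within 2 kb of a protein-coding gene end. A block by replicate number leaves the differences at 19.25 bp and -4.07 by construction, since each probe set has 1 library of each number. Same-numbered pulldowns shared an input library. Scores at 3100 also split by number, with 78.6% and 99.9% of the replicate 1 lists (even, odd) against 0.0641% and 0.100% of the replicate 2 lists. Replicate deviations in width correlated at 0.0245 across regions, which cannot decide whether libraries were paired, since regions are not replicates. The numbers were not taken as pairs. Unknown depth limits any reading of a missing peak.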

Other observations

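Among the 18 region centres in genes of other kinds were 3 in antigen receptor loci, which are rearranged in lymphocytes and not in podocytes. They lay in Igh (replicate 2 scores 900 with even and 782 with odd probes), Igk (1036 and 480) and Tcra (386 and 726). Pseudogenes held 6, among them Gm19193 (1067 and 1049), which was above the percentile 99 in both replicate 2 lists, and Mup-ps1 (132 and 1153). Transcribed pseudogenes held 2, Adgrd2-ps (422 and 209) and Speer8-ps1 (59.5 and 573). The widest region after the first in Tug1 lay in Tmco4, at chromosome 4, 139024667 to 139027984, with 3318 bp and scores of 1977 (even) and 3100 (odd) in the replicate 2 lists. The largest common share, 97.5% of the region, was at Klra10, a natural killer cell receptor gene, where the scores were 483 and 389.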
